A study of Mus musculus with 24 samples.

Results

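Strong sites closed by active YAP are stretches of open chromatin whose ATAC-seq signal was lower after YAP was switched on in cultured mouse periosteal cells and whose mean signal was above a fixed limit. Members were chosen by their ATAC-seq values, as the autosomal sites of the authors' deposited table of differential sites in YAPCA cells that had a lower group mean with Dox than without it and a mean concentration of at least 7, where concentration is the log2 of normalised reads in a site. This gave 1814 of 30509 deposited sites. Another 2040 autosomal sites were lower with Dox but under the limit (weak closed sites), 16929 were higher with Dox and above the limit (strong opened sites), and 40 lower sites lay on the X chromosome. The values that chose the members are therefore a description here, with no test.

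YAPCA cells combine B6.C-tg(CMV-Cre)1Cgn/J, a Cre driven by the CMV promoter, with tetO-YAPS127A, a YAP S127A transgene under a tetO promoter, and with Gt(ROSA)26Sortm1(rtTA,EGFP)Nagy/J, an rtTA with EGFP at the Rosa26 locus, so that doxycycline (Dox) turns on the transgene. YAPCA cells treated with 1 µM Dox were compared with untreated YAPCA cells, which carry the same alleles, and C57BL6 wild-type cells with 1 µM Dox were compared with untreated C57BL6 cells. Dox was dissolved in water, the controls received no vehicle, and treatment was in medium with 10% FBS. The cells were primary periosteal cells, and no source used here gives the age or sex of the animals or the length of treatment. Each group had 3 RNA-seq and 3 ATAC-seq samples labelled as technical replicates, so a p-value reflects only how far these samples lie apart, and that spread may be technical. The ATAC-seq values were group means without a value per sample, so their spread and depth are unknown.

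ATAC-seq cuts DNA where nucleosomes leave it free, so reads pile up at promoters and at distal enhancers. YAP is a coactivator of the Hippo pathway that has no DNA-binding domain of its own and is brought to DNA mainly by TEAD factors. The S127A change removes a site at which LATS kinases phosphorylate YAP to hold it in the cytoplasm. YAP is best known for opening and activating enhancers, often beside AP-1, and it has also been linked to lower expression of some genes. The periosteum is the sheath around bone, and its progenitors form bone and cartilage after fracture.

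The libraries looked like those of matrix-producing mesenchymal cells. Mean normalised read counts of Col1a1, a chain of type I collagen, were 222276 with Dox and 307111 untreated, those of Pdgfra, a mesenchymal receptor, were 4784 and 6640, and those of the defining markers of blood cells (Ptprc, Adgre1), epithelium (Epcam, Krt5, Krt14) and muscle (Myod1) stayed under 2 in both groups. Other markers of these lists were higher. Csf1r, a receptor of macrophages, was at 198 with Dox and 205 untreated, and Cdh1, of epithelium, at 2.40 with Dox and 2.62 untreated. Of the endothelial markers, Cdh5 was at 9.86 with Dox and 13.9 untreated, and Pecam1 at 5.37 with Dox and 2.71 untreated. The 2 tested markers of the epithelial list summed to 726 to 795 with Dox and 468 to 515 untreated. Those of the muscle list, also 2, summed to 983 to 1062 with Dox and 1054 to 1218 untreated. Yap1 itself, on the mouse gene's line, was listed at 4732, 4766 and 4896 with Dox and at 5134, 4945 and 5042 untreated, with a log2 change of -0.07 (limma adjusted p = 0.070), and this line may not count the transgene. Reads per RNA library ranged from 16351891 to 28734643. RNA changes are log2 changes of Dox over untreated on log2(normalised read count + 1), and a gene rose or fell where its adjusted p was below 0.05. In the list of YAP/TEAD target genes, 14 of 23 tested genes rose with Dox and 1 fell, where 14.3% of all 13477 genes tested rose and 13.5% fell. A second sheet of the deposited site workbook, for chromosome 3, gave the headings of both groups exchanged for all 1932 sites shared with the main sheet, 75 of them members, while the chromosome 1 sheet had the order of the main sheet for all 2321. The direction of every site below follows the headings of the main sheet. If the chromosome 3 sheet were the right one, the members would be sites of higher signal with Dox, and every fold of a site would turn round.

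Some strong closed sites lay right on gene starts, and their sequences show what kind of promoter was involved. Of the promoter windows in RefSeq's GRCm38.p6 table (250 bases before to 50 after a listed start), 65 windows of 61 genes had at least 150 bases inside a member. The 7 printed here are those of the genes with the largest falls and rises in RNA, and of the members of the gene lists used here. Capitals mark matches, on either strand, to GGAATG (TEAD), TGANTCA (AP-1), TGTGGT (RUNX) and GGGCGG (SP/KLF, a GC box), and every sequence runs 5′ to 3′ along the gene's strand.

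Ednra encodes an endothelin receptor. The window on the minus strand at chr8:77724403-77724702 had 235 bases inside the member at chr8:77723653-77724637, whose concentration was 9.14 with Dox and 9.36 untreated. No searched letters stand in it.
Ednra: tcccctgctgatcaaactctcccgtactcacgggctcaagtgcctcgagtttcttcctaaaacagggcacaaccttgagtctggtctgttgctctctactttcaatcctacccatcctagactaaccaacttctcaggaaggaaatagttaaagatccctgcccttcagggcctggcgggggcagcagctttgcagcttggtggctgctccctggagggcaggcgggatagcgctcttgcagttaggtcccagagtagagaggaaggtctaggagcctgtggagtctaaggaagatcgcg

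Ptgfr encodes the receptor for prostaglandin F. The window on the minus strand at chr3:151837479-151837778 had 164 bases inside the member at chr3:151836834-151837642, with 8.84 with Dox and 9.08 untreated. Its capitals mark 2 GC boxes.
Ptgfr: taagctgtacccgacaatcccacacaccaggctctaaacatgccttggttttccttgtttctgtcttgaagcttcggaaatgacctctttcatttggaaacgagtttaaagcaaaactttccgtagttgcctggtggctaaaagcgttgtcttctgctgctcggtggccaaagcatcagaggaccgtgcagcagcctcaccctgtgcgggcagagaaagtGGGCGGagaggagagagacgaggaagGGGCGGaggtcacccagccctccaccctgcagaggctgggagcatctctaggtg

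Prrx1, a homeobox factor of limb and periosteal mesenchyme, had 285 bases of the minus-strand window at chr1:163313601-163313900 inside the member at chr1:163313191-163313885, with 8.57 with Dox and 8.90 untreated. The capitals mark 1 match to the TEAD letters.
Prrx1: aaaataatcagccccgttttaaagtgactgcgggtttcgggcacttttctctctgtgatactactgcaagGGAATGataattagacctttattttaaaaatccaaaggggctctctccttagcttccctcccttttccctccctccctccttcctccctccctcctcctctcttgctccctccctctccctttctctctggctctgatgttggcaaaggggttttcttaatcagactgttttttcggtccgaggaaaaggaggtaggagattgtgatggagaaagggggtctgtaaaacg

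Col6a3 encodes a chain of type VI collagen, which forms the fine filaments around cells. The minus-strand window at chr1:90843922-90844221 had 191 bases inside the member at chr1:90843888-90844112, with 7.32 with Dox and 7.71 untreated, and held none of the searched letters.
Col6a3: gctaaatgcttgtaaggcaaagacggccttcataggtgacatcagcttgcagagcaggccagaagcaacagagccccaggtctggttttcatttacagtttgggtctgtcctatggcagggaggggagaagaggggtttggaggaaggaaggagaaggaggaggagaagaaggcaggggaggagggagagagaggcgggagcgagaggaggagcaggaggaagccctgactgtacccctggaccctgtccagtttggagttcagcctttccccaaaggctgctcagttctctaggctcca

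Runx2 is the factor that commits cells to the osteoblast lineage. The minus-strand window at chr17:44814578-44814877 had 240 bases inside the member at chr17:44814638-44815325, with 8.90 with Dox and 9.22 untreated, and 3 matches to the RUNX letters.
Runx2: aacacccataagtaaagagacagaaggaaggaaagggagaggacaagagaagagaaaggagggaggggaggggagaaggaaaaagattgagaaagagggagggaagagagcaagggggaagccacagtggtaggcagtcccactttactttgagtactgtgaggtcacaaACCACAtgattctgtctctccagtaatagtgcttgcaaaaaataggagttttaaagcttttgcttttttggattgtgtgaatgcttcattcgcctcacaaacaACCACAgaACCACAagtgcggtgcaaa

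Il11 encodes interleukin 11, a cytokine of the IL-6 family that bone cells make. The minus-strand window of 1 of its listed starts, at chr7:4778092-4778391, had 288 bases inside the member at chr7:4778104-4778524, with 7.86 with Dox and 8.18 untreated. The capitals mark 1 AP-1 match and 4 GC boxes, some of which overlap.
Il11: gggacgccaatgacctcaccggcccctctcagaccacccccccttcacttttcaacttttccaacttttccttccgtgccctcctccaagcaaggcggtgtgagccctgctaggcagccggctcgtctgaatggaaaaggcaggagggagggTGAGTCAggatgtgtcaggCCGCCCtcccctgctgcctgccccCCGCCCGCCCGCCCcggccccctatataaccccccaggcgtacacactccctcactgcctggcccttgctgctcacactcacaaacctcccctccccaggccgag

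Il15ra encodes the receptor chain that presents interleukin 15. All 300 bases of the plus-strand window at chr2:11705462-11705761 lay inside the member at chr2:11705460-11706008, with 8.08 with Dox and 8.39 untreated. Its capitals mark 1 TEAD and 1 AP-1 match.
Il15ra: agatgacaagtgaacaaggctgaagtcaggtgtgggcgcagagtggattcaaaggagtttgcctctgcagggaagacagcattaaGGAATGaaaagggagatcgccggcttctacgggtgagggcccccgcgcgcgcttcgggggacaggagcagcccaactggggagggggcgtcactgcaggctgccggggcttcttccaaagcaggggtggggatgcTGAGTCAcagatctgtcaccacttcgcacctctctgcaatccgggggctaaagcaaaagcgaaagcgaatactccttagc

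Across the 65 covered windows, the letters of AP-1 stood in 18.5%, against 6.71% of the 894 windows covered in the same way by strong opened sites and 7.06% of all 20084 listed windows. GC boxes stood in 47.7% of the windows at strong closed sites, in 71.6% of those at strong opened sites and in 47.0% of all windows. For TEAD the shares were 13.8%, 18.2% and 13.4%, for RUNX 9.23%, 11.6% and 14.8%, and for the ETS letters CCGGAAG 10.8%, 17.1% and 11.9%. The other 11 motifs stood in at most 13.8% of the 65 windows. The median GC content was 55.0% at strong closed sites, against 64.0% at strong opened sites and 57.0% of all windows. The ratio of observed to expected CpG, which is high in CpG islands, had a median of 0.498 at strong closed sites, 0.780 at strong opened sites and 0.586 over all windows. A ratio of 0.6 or more was found in 41.5% of the windows at strong closed sites, 78.9% of those at strong opened sites and 48.9% of all windows. Windows share genes and sequence, so these shares are a description.

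Most members were closed only in part. The median concentration of the 1814 members was 7.65 with Dox and 8.06 untreated, and the median log2 fold was -0.39 in the authors' deposited table, a signal 0.763 times that of untreated cells. Folds ran from -1.65 to -0.16, 286 members had a size of 0.5 or more, and 1 lay below -1. The weak closed sites, from which the limit separates them, had a median fold of -0.68. The table lists only sites with an FDR of at most 0.05, so sites of low signal enter it only with a large fold. Along the members the median fold was -0.46 at a mean concentration of 7 to 7.5, -0.40 at 7.5 to 8, -0.33 at 8 to 9, -0.26 at 9 to 10 and -0.20 in the 26 members at 10 or more. Just inside the limit, the members near Jak1 and Cdc37l1 and 1 with no start within 100 kb had a mean at the limit of 7 and folds of -0.72, -0.66 and -0.67. Just outside it, closed sites near Chst11, Doc2b and Klhl8 had a mean of 6.99 and folds of -0.59, -0.50 and -0.47. There were 120 members up to 0.1 above the limit and 106 closed autosomal sites up to 0.1 under it.

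**Figure D1:**
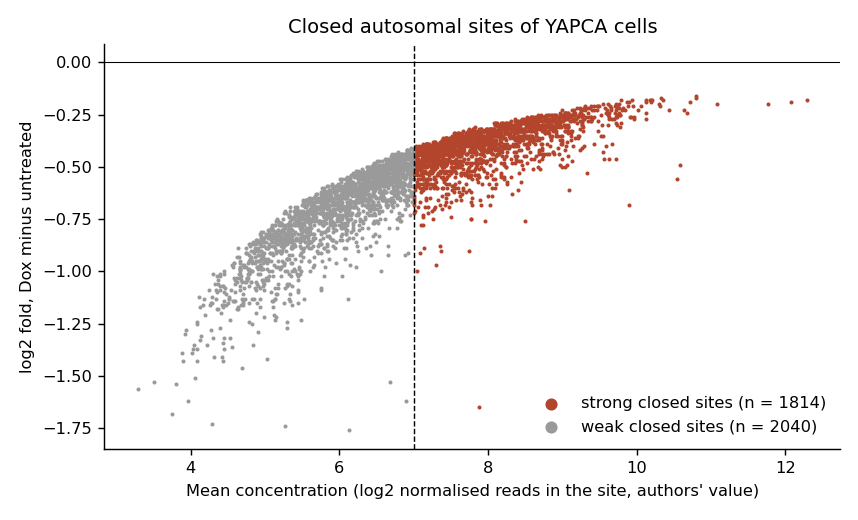
Mean concentration (log2 normalised reads in the site, horizontal) and log2 fold of Dox minus untreated (vertical) of each closed autosomal site in YAPCA cells, from the authors' deposited table. Red points are the 1814 strong closed sites right of the dashed limit at 7, and grey points are the 2040 weak closed sites. The median fold of the red points shrinks towards 0 as the concentration grows. Single sites lie lower, such as those near Egr3 at -1.65, Btg2 at -0.68 and Ftl1 at -0.49.

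Strong closed sites lay within 1 kb of a gene start more often than the rest of the table. A start lay inside 68 of the 1814 strong closed, 15 of the 2040 weak closed, 920 of the 16929 strong opened and 1080 of all 30509 sites. This share was larger in strong opened than in strong closed sites, and smaller in weak closed sites and in all sites together. For genes without a listed start (those of 475 members), either gene end counted as a start, so far ends of genes may be among these. The share within 1 kb of a start was 14.3% (260 sites), against 10.2% of weak closed sites, 8.61% of strong opened sites and 7.11% of all sites. By mean concentration the share within the members was 14.1% at 7 to 7.5, 10.3% at 7.5 to 8, 14.9% at 8 to 9, 22.0% at 9 to 10 and 23.1% at 10 or more. The median distance to a start was 21634 bases, against 31833 for strong opened sites, and 277 members lay more than 100 kb from any start. Inside a gene lay 57.0% of the members and 54.4% of the strong opened sites. The median width was 485 bases for strong closed sites and 441 for strong opened sites.

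Members were found on every autosome, from 3.66% of the deposited sites on chromosome 12 and 3.88% on chromosome 3 to 9.15% on chromosome 11. They were mostly single sites, since 227 (12.5%) had another member within 10 kb. An opened site lay within 10 kb of 386 members (21.3%), and the median distance to the nearest opened site was 24416.5 bases. These distances depend on how many sites of each kind the table holds.

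The site with the lowest fold lay beside Egr3, an immediate-early zinc finger factor, at chr14:70085076-70085650, with a concentration of 6.83 with Dox and 8.48 untreated and a fold of -1.65 (the authors' deposited FDR 1.57e-34). It was the middle of a closed block. A further member at chr14:70087351-70087671 had 6.63 with Dox and 7.52 untreated, and weak closed sites at chr14:70084342-70084591, chr14:70084674-70084823 and chr14:70085781-70086094 had folds of -1.53, -1.76 and -1.62. Within 100 kb of Egr3 stood 7 strong and 5 weak closed sites and 4 opened sites. Egr3 RNA fell as well, with 135, 124 and 92.2 normalised read counts with Dox and 239, 254 and 214 untreated. The groups did not overlap, and the log2 change was -1.02 ± 0.13 (SE, limma adjusted p = 2.12e-05, n = 3 each).

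The other members of lowest fold lay near genes whose RNA did not pass the test or was not tested. The 10 members with the most negative folds lay nearest to 8 genes, of which 7 were tested, and 1 of them (Egr3) fell, none rose and 6 did not pass, where 13.5% of all genes tested fell. The site near Kalrn, a guanine exchange factor, had 7.23 with Dox and 8.13 untreated, while Kalrn RNA averaged 1139 ± 41.1 with Dox and 1145 ± 62.9 untreated (SD, n = 3 each). The site nearest to Osr1, a factor of connective tissue progenitors, had 6.55 with Dox and 7.47 untreated at 93566 bases from the gene, and Osr1 RNA averaged 826 ± 34.1 with Dox and 854 ± 26.6 untreated (limma adjusted p = 0.519).

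The most accessible members had small folds, and RNA of most of their nearest genes fell. Of the 8 tested genes nearest to the 10 members with the highest concentration, 6 fell, 1 rose and 1 did not pass. The highest member of all, at chr15:76463389-76463968, had 12.19 with Dox and 12.38 untreated and was nearest to Scx, which encodes scleraxis, a tendon and ligament factor. Scx had 4 members, 2 weak closed sites and 1 opened site within 100 kb, and its RNA fell to 634, 613 and 560.0 with Dox, against 697, 742 and 701 untreated (log2 change -0.25, limma adjusted p = 0.0040). The member at Ftl1, the ferritin light chain, had 10.31 with Dox and 10.80 untreated. RNA of Ftl1 fell with a log2 change of -0.22, and so did that of Fth1, the ferritin heavy chain, with 4 members and 20765 ± 251 with Dox against 25270 ± 233 untreated. U2af2, a splicing factor, rose with a log2 change of 0.09. The member with the second smallest FDR, at chr1:134073881-134075061, lay near Btg2, an antiproliferative gene, with 9.51 with Dox and 10.19 untreated, and Btg2 RNA fell with a log2 change of -0.24.

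**Figure D2:**
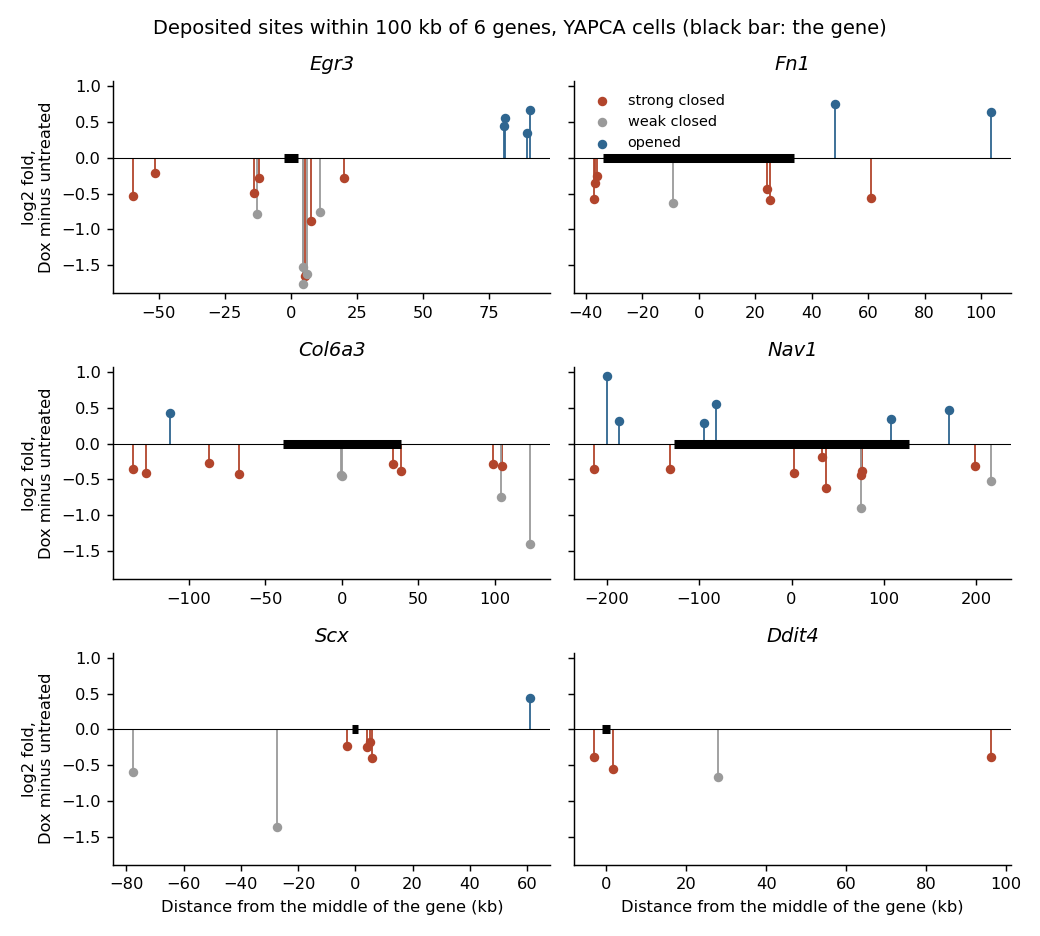
Deposited sites within 100 kb of Egr3, Fn1, Col6a3, Nav1, Scx and Ddit4 in YAPCA cells, by distance from the middle of the gene in kb (horizontal) and log2 fold of Dox minus untreated (vertical). Red marks strong closed, grey weak closed and blue opened sites, and the black bar is the gene; Egr3 has the deep block near 0, and Ddit4 has no opened site.

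RNA was a readout that the choice of sites did not use. Each site was given to the protein-coding gene with the nearest start within 100 kb, which left 1310 genes, 1065 of them with a mean normalised read count of at least 10. Over all 13477 genes tested, 3757 (27.9%) passed an adjusted p of 0.05, and 1826 fell (13.5%) and 1931 rose (14.3%). Among the 1065 tested genes nearest to strong closed sites, 304 fell (28.5%) and 138 rose (12.96%). Their median log2 change was -0.05, against 0.00 over all genes tested. Of genes nearest to weak closed sites 20.9% fell and 13.8% rose, and of those nearest to strong opened sites 14.8% fell and 22.3% rose. These lists share genes. In bulk samples, fewer cells of a type and less RNA per cell cannot be told apart.

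The share of falling genes went up with the number of strong closed sites. It was 25.3% of 912 genes with 1 site, 42.6% of 122 genes with 2 and 67.7% of 31 genes with 3 or more, where 21 fell and 2 rose. The median log2 changes were -0.04, -0.10 and -0.28. Genes with more sites were also read more deeply, with median counts of 850, 1098 and 1595, and a change is easier to call at higher counts. Where the mean count reached 1000, 16.3% of all genes fell, 31.9% of genes nearest to strong closed sites and 42 of the 84 with 2 or more such sites. For strong opened sites the share of rising genes was 16.1%, 22.7% and 34.3% at 1, 2 and 3 or more sites.

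**Figure D3:**
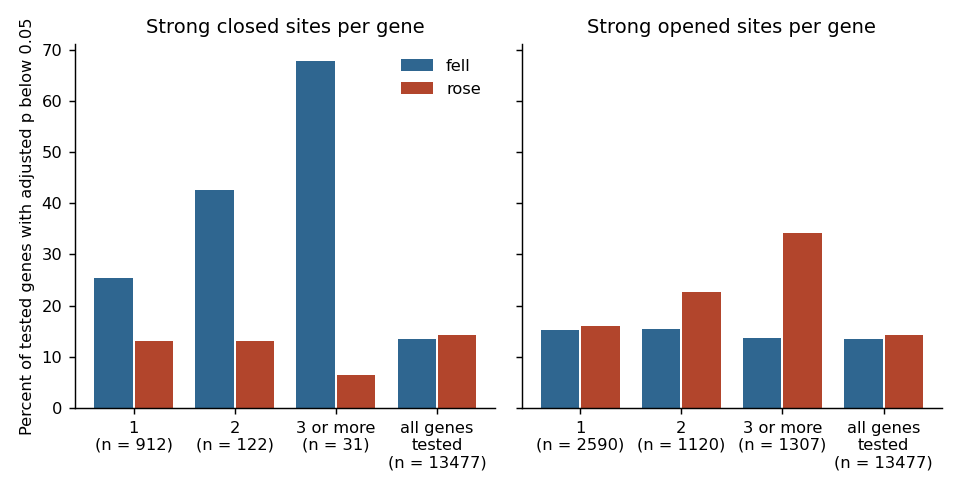
Percent of tested genes that fell (blue) or rose (red) with Dox at a limma adjusted p below 0.05, by the number of strong closed sites (left panel) or strong opened sites (right panel) nearest to the gene, with the number of genes under each pair of bars. The share that fell reaches 67.7% at 3 or more strong closed sites, and the share that rose reaches 34.3% at 3 or more strong opened sites.

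The share that fell differed less by distance and by opened neighbours. It was 31.9% where the nearest strong closed site lay within 1 kb, 31.8% at 1 to 10 kb and 25.7% at 10 to 100 kb. Genes with no opened site of their own fell in 108 and rose in 25 of 338 cases, and genes with opened sites too fell in 196 and rose in 113 of 727, or 32.0% and 27.0% for the falls. A deeper fold at the site did not go with more falling genes: 24.2% fell where the lowest fold was -0.5 or below and 29.5% where it was above -0.5. Of the 49 tested genes whose listed promoter window was covered, 21 fell, 5 rose and 23 did not pass. The shares were 28.5% and 12.96% for falls and rises among all genes nearest to strong closed sites, and 13.5% and 14.3% over all genes tested.

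**Figure D4:**
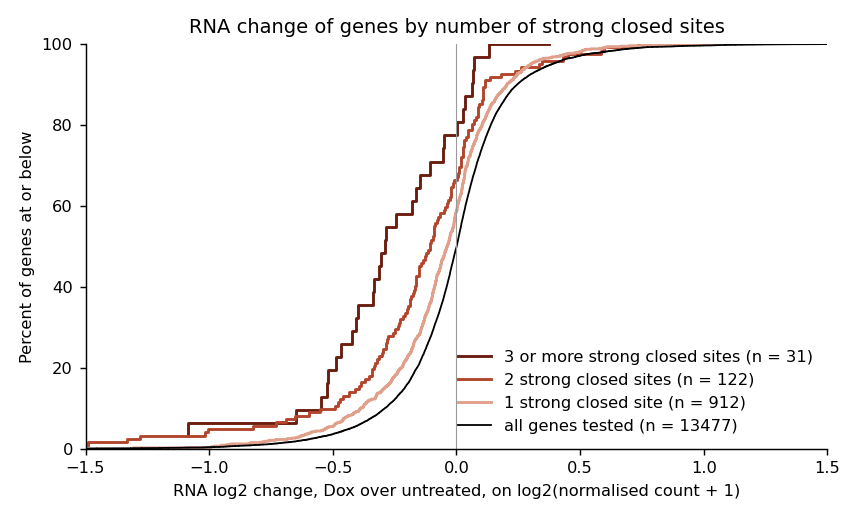
Cumulative percent of genes (vertical) at or below each RNA log2 change of Dox over untreated (horizontal, on log2 of normalised count + 1), for genes with 3 or more, 2 or 1 strong closed sites and for all genes tested. The curves lie further left with more sites, with medians of -0.28, -0.10 and -0.04, against 0.00 for all genes.

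Matrix genes included the gene with the most strong closed sites. In the list of collagens and matrix genes, 17 of 28 tested genes fell and 3 rose, and of the 8 with a strong closed site 7 fell and 1 did not pass. Fn1, which encodes fibronectin, had the most members of any gene, 6 sites with folds from -0.59 to -0.26, 3 of them just beyond 1 end of the gene at 1740 to 3062 bases and 1 at chr1:71680148-71680722 with 7.79 with Dox and 8.35 untreated. Fn1 RNA fell to 163664, 157455 and 169505 with Dox, against 184676, 183852 and 186745 untreated, a log2 change of -0.18 with no overlap.

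Col1a1 had 3 sites of its own and 8 strong closed sites within 100 kb, together with 7 opened ones. Its RNA fell to 221294, 222276 and 223257 with Dox, against 317287, 310372 and 293675 untreated, a log2 change of -0.47 ± 0.03 (SE, limma adjusted p = 8.90e-09). All 3 chains of type VI collagen fell. Col6a3 RNA was 22825 ± 676 with Dox and 28479 ± 315 untreated (SD, n = 3 each), and the gene had 8 strong closed, 4 weak closed and 1 opened site within 100 kb. Col6a1 and Col6a2, neighbours on chromosome 10, had log2 changes of -0.46 and -0.47 and 3 strong closed sites in the same range. Col14a1, a fibril-associated collagen, changed by -0.50, and Fbln2, a fibulin of the matrix, by -0.15 on the log2 scale, both past the test. Col5a1 had 3 strong closed and 13 opened sites within 100 kb, and its counts were 67413 ± 681 with Dox and 68396 ± 2433 untreated (limma adjusted p = 0.638).

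BMP and TGF-beta genes near strong closed sites fell more often than not. Of 32 tested genes in the list, 13 fell and 7 rose, and of the 10 with a strong closed site 7 fell and 3 did not pass. Id1, Id2 and Id3 encode inhibitors of basic helix-loop-helix factors and are direct targets of BMP signalling. Id3 had sites at chr4:136146098-136146425, with 8.32 with Dox and 8.83 untreated, and at chr4:136146568-136147080, with 9.05 with Dox and 9.46 untreated. Id3 RNA fell to 6130, 6213 and 5977 with Dox, against 7557, 7956 and 7536 untreated, a log2 change of -0.33, and Id1 and Id2 changed by -0.30 and -0.27. Within 100 kb, Id1 had 3 strong closed and 15 opened sites, Id2 had 1 and 2, and Id3 had 3 and 3.

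Receptors and antagonists were among these genes too. Tgfbr3, the betaglycan co-receptor, fell with a log2 change of -0.38, Acvr1, a type I BMP receptor, with -0.12, and Bmp1, a protease that processes procollagen, with -0.12. Grem1, a secreted BMP antagonist with a site 422 bases from its start, fell to 2950.4 ± 25.9 with Dox, against 3501 ± 61.2 untreated. Nog (0.60, at 28.2 with Dox and 18.2 untreated) and Tgfb1 (-0.18) did not pass.

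Genes of progenitor identity were split. Of 23 tested genes in the list of periosteal and skeletal progenitor genes 10 fell and 2 rose, and of the 9 with strong closed sites 4 fell and 5 did not pass. Prrx1, with 3 sites including the promoter site printed above, fell to 7102, 7149 and 7423 with Dox, against 9089, 8952 and 9241 untreated, a log2 change of -0.33 with no overlap. Cxcl12, a chemokine that stromal cells use to hold blood stem cells, fell to 6701 ± 198 with Dox, against 8794 ± 259 untreated. Its strong closed site lay 99471 bases away, and 7 opened sites stood within 100 kb of the gene. Ctsk, which encodes cathepsin K and marks periosteal stem cells, had 2 sites with a mean fold of -0.49 and counts of 1634 ± 19.5 with Dox and 1625 ± 49.9 untreated. Tbx15, Thy1, Osr1 and Dpt did not pass either, with log2 changes from -0.13 to 0.01.

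Lineage factors near strong closed sites included several that fell. Runx1, a Runt factor of skeletal progenitors, had 2 sites and fell to 1248, 1401 and 1259 with Dox, against 1786, 1738 and 1839 untreated (log2 change -0.46). Within 100 kb of Runx1 stood 2 strong closed, 3 weak closed and 7 opened sites. Runx2 was listed at 1085, 1180.5 and 1127 with Dox and 1172, 1181 and 1198 untreated, so the groups overlapped (limma adjusted p = 0.269). Sox9, the factor of cartilage, fell to 292 ± 36.9 with Dox, against 437 ± 23.3 untreated, and Nfatc1, a factor of osteoclasts and heart valves with 3 sites, to 744 ± 27.6 with Dox, against 1044 ± 51.4 untreated. In the list of transcription factors of the searched motifs 18 of 47 fell and 10 rose, and of the 15 with strong closed sites 8 fell, 1 rose and 6 did not pass. The 1 that rose was Ebf3 (log2 change 0.26). Egr1, with the third highest site, did not pass, with 3449 ± 196 with Dox and 3261 ± 171 untreated.

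Adipocyte genes gave 4 falls and 4 that did not pass among the 8 with strong closed sites, and 5 falls and 2 rises among the 13 tested in the list. Cebpa and Cebpb, factors of fat cell differentiation, had log2 changes of -0.47 and -0.60. Within 100 kb, Cebpa had 1 strong closed, 2 weak closed and 1 opened site, and Cebpb 2 strong closed and 5 opened sites. Zfp423, which marks preadipocytes, was lowly read and fell to 31.3, 42.9 and 42.7 with Dox, against 87.2, 77.8 and 85.8 untreated. In the WNT list, 9 of 26 fell and 4 rose, and of the 5 tested genes with strong closed sites 4 fell, among them Sfrp2, a secreted WNT modulator (43.0 ± 10.5 with Dox and 82.9 ± 8.10 untreated), and Fzd7, a WNT receptor (log2 change -0.20). Within 100 kb, Fzd7 had 1 strong closed, 3 weak closed and 7 opened sites, and Sfrp2 had 1 strong closed and 2 opened sites. Wnt16, also with a strong closed site, was below the count limit. Calls of 5 genes of these lists rested on single libraries: Pparg, the master factor of fat cells (-0.16), lost the call without Dox 1, Dox 3 or any untreated library (adjusted p 0.0748 to 0.198), Wnt2 (-0.18) without Dox 1, Dox 2, untreated 2 or untreated 3 (0.107 to 0.140), Tcf7l1 (-0.23) without Dox 1, Dox 3, untreated 1 or untreated 2 (0.0565 to 0.0954), Twist2 (-0.30) without Dox 3, untreated 1 or untreated 2 (0.0664 to 0.101) and Zeb1 (-0.14) without Dox 2 or untreated 1 (0.0748 to 0.0815), all by limma. Neither Pparg nor Wnt2 passed with DESeq2 (adjusted p = 0.131 and 0.122), nor Pparg with no filter on low counts (limma adjusted p = 0.0535).

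The 10 largest falls given here are those among genes nearest to strong closed sites with a mean count of at least 100. Ddit4, an inhibitor of mTORC1 induced by stress and glucocorticoids, fell to 340.5, 347 and 385 with Dox, against 1042, 959 and 1017 untreated, a log2 change of -1.49 ± 0.06 (SE, limma adjusted p = 1.11e-10). It had 3 strong closed sites, 1 weak closed site and no opened site within 100 kb, and the site 498 bases from its start had 6.86 with Dox and 7.43 untreated. Ednra fell to 63.4, 60.9 and 48.3 with Dox, against 149.6, 148 and 139 untreated, a log2 change of -1.33, and Ptgfr to 149.5, 139.7 and 152 with Dox, against 275, 271 and 348 untreated, a change of -1.01. Both had the covered promoter windows printed above.

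Cygb, a globin of fibroblast-like cells, had 3 sites inside the gene with folds of -0.35, -0.38 and -0.38 and fell to 154, 181 and 206 with Dox, against 349, 386 and 409 untreated. Trp53inp1, a target of p53, fell by 0.92 on the log2 scale, and Slc43a2, an amino acid transporter, by 0.98. Prr7 (-0.99), Draxin (-0.95), a guidance protein of axons, and Camk1d (-0.93), a calcium-dependent kinase, were the others of these 10. Below that mean count, Zfp423 and Sfrp2, described above, fell by 1.09 and 0.95 on the log2 scale. By the rule that named them, the Dox and untreated counts of these 10 genes did not overlap.

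**Figure D5:**
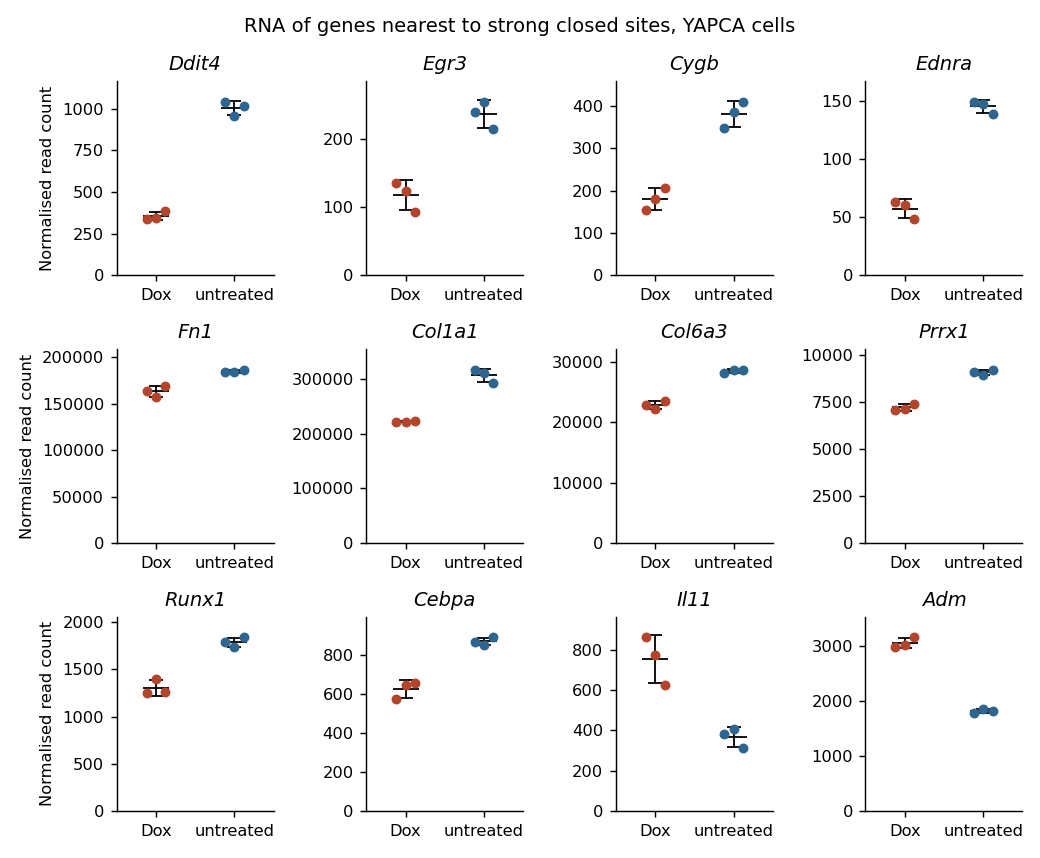
Normalised read counts (vertical, from 0) of 12 genes nearest to strong closed sites in the 3 Dox (left, red) and 3 untreated (right, blue) YAPCA libraries, with the mean and SD in black. Ddit4, Egr3, Cygb, Ednra, Fn1, Col1a1, Col6a3, Prrx1, Runx1 and Cebpa lie lower with Dox, Il11 and Adm higher, and in none do the groups overlap.

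A strong closed site beside a gene did not always go with a lower RNA. Il11 was the nearest gene of no opened site but had 3 opened sites within 100 kb, beside the covered promoter window printed above, and rose to 862, 774 and 626 with Dox, against 382, 408 and 311 untreated, a log2 change of 1.03. Adm, the vasodilator peptide adrenomedullin, was the nearest gene of 2 strong closed and 4 opened sites and had 13 opened sites within 100 kb. Its RNA rose to 3063 ± 88.0 with Dox, against 1820.5 ± 43.0 untreated. Csf1, on which macrophages and osteoclast precursors depend, was the nearest gene of 1 strong closed and 18 opened sites and rose with a log2 change of 0.50. Within 100 kb it had 2 strong closed and 24 opened sites.

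Of the 10 genes with the largest rises, those other than Il11 were the nearest gene of at least 1 opened site. So were 727 of all 1065 tested genes nearest to strong closed sites and, among the 10 largest falls, Ednra, Ptgfr, Slc43a2 and Camk1d. Lpar6, a receptor for lysophosphatidic acid, rose by 0.77, Ablim1, an actin-binding protein, by 0.73, Zfpm2, a GATA cofactor, by 0.70, Il15ra by 0.61, Vgll3, a TEAD cofactor, by 0.60, Fmn1, a formin, by 0.60 and Nuak1, a kinase, by 0.59 on the log2 scale. Ablim1 and Zfpm2 were the nearest genes of 11 and 8 opened sites. Dock5, a guanine exchange factor in the YAP/TEAD target list, rose with 0.33, while Arhgef17 and Rbms3 of that list, each with 1 strong closed site, did not pass.

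Growth factor genes went both ways: of the 7 tested with strong closed sites 3 rose, 3 fell and 1 did not pass, and of the 30 tested in the list 13 rose and 6 fell. Vegfa, the growth factor of blood vessels, fell to 4812, 4856 and 4283 with Dox, against 6425, 6547 and 6073 untreated, and Fgfr1, a fibroblast growth factor receptor, changed by -0.19. Nrg1, a ligand of ERBB receptors, passed with 0.17, and the call was lost without any of Dox 1, Dox 2, Dox 3, untreated 1 or untreated 2 (limma adjusted p 0.0566 to 0.138) and with DESeq2 (adjusted p = 0.0837). Gdf5, a joint factor with a site of its own, was below the count limit.

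Several genes with many strong closed sites did not pass the test. Pmepa1, a TGF-beta target that dampens SMAD signalling, had 4 sites and counts of 5936 ± 258 with Dox and 5929 ± 258 untreated, and Cmip, also with 4, had 2109 ± 38.9 with Dox and 2058 ± 83.9 untreated. Cops8, a subunit of the COP9 signalosome with 4 sites, rose by 0.13, while the counts of Sgk1, a serum-induced kinase with 4 sites and 9 opened ones, were 10462 ± 227 with Dox and 9985 ± 104 untreated (limma adjusted p = 0.060). Nav1, a microtubule-binding protein with 5 sites, fell to 1376 ± 61.4 with Dox, against 1814 ± 118 untreated, and Kdm7a, a histone demethylase with 4, fell by 0.31. Pebp4, with 5 sites next to the Egr3 block, was not tested for low counts, and Septin9, with 4, was not analysed here because its RNA line could not be named.

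Summed counts of markers of other cell types differed between the groups without overlap in 2 of 4 lists, the macrophage and osteoclast list and the epithelial list. Only tested genes were summed. The counts of 7 of the 11 macrophage and osteoclast markers ranged from 1160.0 to 1206 with Dox and from 1463 to 1532 untreated. This was mostly through Nfatc1, itself a gene with strong closed sites. Endothelial markers (3 of 8) summed to 72.8 to 115 with Dox and 57.7 to 81.5 untreated. Muscle markers (2 of 8) summed to 983 to 1062 with Dox and 1054 to 1218 untreated, so in both lists the groups overlapped. Epithelial markers (2 of 7) summed to 726 to 795 with Dox and 468 to 515 untreated, and both of these markers rose. Epcam, Krt5 and Krt14, at means under 2, were not among them. In these lists Kdr, an endothelial receptor, did not pass, and no muscle or epithelial marker had a strong closed site. The part of other cell types in the results was not tested.

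Wild-type cells carry no YAP transgene, so their values give the response of C57BL6 cells to Dox. They also lack the Cre and the rtTA with EGFP of YAPCA cells. The authors' deposited wild-type table lists 42 sites, 6 lower and 36 higher with Dox, against 30509 in YAPCA cells, and 4 of the 42 overlapped any YAPCA site. One overlapped a member, the site over Egr1. In wild-type cells chr18:34864992-34865985 had 11.23 with Dox and 11.52 untreated (fold -0.29, FDR 0.0326 in the authors' deposited table), and in YAPCA cells chr18:34864906-34866635 had 11.66 with Dox and 11.87 untreated (fold -0.20). Sites near Sgk1 and Irs2 that were lower with Dox in wild-type cells, with folds of -0.25 and -0.26, were higher in YAPCA cells, with 0.36 and 0.23. A site missing from the wild-type list is not shown to be unchanged, and the difference between the genotypes was not tested.

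The authors' deposited wild-type RNA table lists 98 genes, 75 that fell and 23 that rose with Dox, and 13 of them lie nearest to a strong closed site, of which 11 fell and 2 rose. Igf2r, the receptor that clears insulin-like growth factor 2, was listed at 4140.1, 4228 and 3873 in wild-type cells with Dox and 4737, 4596 and 4452 untreated, and it also fell in YAPCA cells (log2 change -0.15). Vegfa, Lrp1, a lipoprotein receptor, and Itga5, the fibronectin receptor chain, likewise fell in both. For Vegfa the wild-type log2 change in the authors' deposited table was -0.12, while the limma value in YAPCA cells was -0.45. Mat2a, an enzyme of methionine use, and Wsb1, a ubiquitin ligase subunit, were lower with Dox in the authors' deposited wild-type table (log2 changes -0.16 and -0.15) and rose in YAPCA cells by 0.24 and 0.54 in the limma fit.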

How the data were processed

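RNA-seq and ATAC-seq of periosteal cells were measured in 24 samples, in 8 groups of 3. Tools named in the submitters' processing notes are Bowtie2, MACS2, SAMtools, bedtools, HOMER and DiffBind, which handle open chromatin, and featureCounts, HISAT2, Picard and DESeq2, with the mm10 build. No source used here gives versions, the transposase shift or whether peaks were pooled. The deposited RNA-seq signal is a read count that the authors divided by 1 factor per sample, as whole multiples in each column show, so whole reads could be recovered for 100% of values at a tolerance of 0.01. The deposited site table holds DiffBind log2 concentrations per group, their log2 difference, p-values and FDR values, per the file headers. The number of per-sample columns that could not be tied to a sample was 0.

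RNA was tested with limma 3.58.1 in R 4.3.3 on log2(normalised read count + 1), two-sided with an intensity trend, for genes with a mean of at least 10, with Benjamini-Hochberg adjustment over all tested genes; such fold changes understate those of low genes. The fit was tested on simulated data. Replicates differed by more than sampling noise (chi-square per degree of freedom 1.79 to 3.35). Starts came from RefSeq's GRCm38.p6 promoter table, the assembly of mm10; where it lists none (475 members), the nearer gene end stood in. In that case 28.4% of genes fell, against 28.6% with a listed start. Motifs were counted only in that table's windows, as no genome was used here. Sites were given to the protein-coding gene with the nearest start.

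Named are the 10 members with the lowest folds, highest concentrations and smallest FDRs, 3 sites on each side of the limit, the 10 genes with most members, the 10 largest falls and rises past the test whose groups do not overlap and whose mean reaches 100, and every gene of 14 lists with a member; predicted genes were left out, a few genes are not reported here, and sites named beyond this stand beside such a gene. Members and lists were chosen with earlier results of these data known. Alternatives were other pseudocounts, filters, scalings, tools (edgeR 4.0.16 and DESeq2 1.42.0), the replicate block, left-out replicates, other limits for members and other ways to give sites to genes.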

Additional observations from a re-analysis of the deposited data

How the results depend on the processing

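Counts of genes nearest to strong closed sites held across the RNA settings: with other pseudocounts, filters, TMM scaling, edgeR or DESeq2, 267 to 309 genes fell (304 reported) and 108 to 143 rose (138 reported), and of genes with 3 or more sites 21 fell in each. Leaving out single replicates gave 254 to 307 falls and 114 to 137 rises, and over all genes 2879 to 3583 passing, against 3757. With a start within 25 kb in place of 100 kb, 708 genes were tested, against 1065, and falls and rises among genes with 2 or more sites numbered 40 and 6, against 73 and 18, and falls among those with 3 or more 10, since fewer sites have a gene. By the nearest gene body 330 fell and 156 rose. An FDR below 0.01 keeps 705 of 1814 members, and 19.2% lie within 2.5 kb of a start. Replicate numbers were not taken as pairs, since correlations of same-numbered deviations were 0.06, 0.11 and 0.20; with the replicate block 4350 genes passed, and 342 genes nearest to strong closed sites fell and 168 rose.

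Of 87 named genes, 66 kept their call and sign under each of the 14 RNA settings that gave them a value (genes with a mean under 50 have none under that filter), among them 55 of the 61 that passed; 8 more passed with the replicate block. Signs turned only in genes that did not pass: Pmepa1 was at 0.00 in the report and at -0.0026, -0.0016 and -0.00091 with TMM, edgeR and DESeq2, and ran from -0.0349 to 0.0372 with a replicate left out, as did Ctsk (-0.0152 to 0.0290), Klf15 (-0.305 to 0.261), Mef2c (-0.295 to 0.0696), Tbx15 (-0.0638 to 0.0223), Thy1 (-0.0137 to 0.0184) and Zfp521 (-0.0595 to 0.0683). The cause was not tested. Searching motifs in windows at the centre of sites was not run, as no genome was used here. The limits are technical replicates, group means without spread for sites, and nearest genes that need not be the targets.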
